A study of Homo sapiens with 9 samples.

Results

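The mRNAs of the PD-1 ligands and of other surface ligands that immune cells read as checkpoint signals were followed in A549 cells after knockdown of Cyclin K. The genes were chosen by name: PDCD1LG2, CD274, CD276, VTCN1, PVR, NECTIN2, CD47 and LGALS9. Of these 8 genes 7 had a row in the deposited tables and passed the filter on low values, out of 21048 genes tested. VTCN1 had no row, and its expression was not analysed here. PDCD1LG2 was picked because its mRNA fell strongly in these libraries, so its difference from scrambled siRNA is given as a description without a test. A549 is an established human lung cancer cell line, and all groups share this line. For 48 h the cells carried siCyclin K#1, siCyclin K#2 or a scrambled siRNA, and RNA from 3 libraries of each group was sequenced, 9 libraries in all. Both Cyclin K siRNAs target CCNK, the gene of Cyclin K, a cyclin that partners kinases of the transcription machinery. By the labels the groups differ only in the siRNA, and the knockdown is transient and in 1 cell line.

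T cells carry the inhibitory receptor PD-1, and it is engaged by PD-L1, the product of CD274, and by PD-L2, the product of PDCD1LG2. Interferon-gamma raises transcription of both ligands through JAK kinases and IRF1, while IL-4 through STAT6 and NF-kB also act on PDCD1LG2. Tumor cells carry other surface proteins of this kind: B7-H3 (CD276) and B7-H4 (VTCN1) of the B7 family, PVR and NECTIN2, which TIGIT and CD226 bind, CD47, which tells phagocytes through SIRPA not to engulf the cell, and galectin-9 (LGALS9), a sugar-binding ligand of TIM-3.

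The deposited values are FPKM, fragments scaled to gene length and library depth, and low values moved in steps of 1 read, which put the depth at 31333749 to 33767961 reads per library. CCNK was at 7.02 ± 0.107 FPKM (SD, n = 3) in scrambled cells, 0.809 ± 0.0857 (SD, n = 3) under siCyclin K#1 and 0.844 ± 0.0661 (SD, n = 3) under siCyclin K#2. CCNK did not pass the test between both siRNAs (log2 difference -0.06, 95% interval -0.28 to 0.17, adjusted p = 0.726 from limma). No library stood apart, since 39 to 62 of 9419 genes per library lay more than 1 log2 unit from their group median. Of 6 epithelial markers 5 had a row. Of these 3 had a mean of at least 1 FPKM, led by KRT8 at 82.5 FPKM, and 2 had a mean under 0.1 FPKM. The summed epithelial markers were 132.2 to 152.0 FPKM in scrambled cells, 159.7 to 187.3 under siCyclin K#1 and 186.0 to 192.6 under siCyclin K#2. Of 12 haematopoietic markers 8 had a row and 2 had a mean of at least 1 FPKM, the highest being CD68 at 33.5 FPKM, a lysosomal protein that tumor cells can also express. The summed haematopoietic markers were 31.9 to 33.0 FPKM in scrambled cells, 33.5 to 36.8 under siCyclin K#1 and 38.5 to 40.8 under siCyclin K#2. All 5 endothelial markers had a mean under 0.1 FPKM. The 6 fibroblast markers, of which 2 had a mean of at least 1 FPKM, summed to 5.69 to 6.47 FPKM in scrambled cells, 19.98 to 22.1 under siCyclin K#1 and 7.78 to 7.94 under siCyclin K#2, the highest of them being COL1A1 at a mean of 6.41 FPKM over the 9 libraries. In bulk RNA, fewer cells that express a gene and less RNA of it per cell cannot be told apart. Nothing in the labels ties the libraries of a group to separate cultures beyond the wording that they are independent samples, and p-values measure the spread between these libraries.

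In scrambled cells the ligands covered a wide range of levels per unit of gene length. NECTIN2 was highest at 34.8 ± 1.33 FPKM (SD, n = 3), followed by CD47 at 21.2 ± 0.284 FPKM (SD, n = 3). The row of PVR was at 11.8 ± 0.532 FPKM (SD, n = 3). The 3 genes of the B7 family were lower: PDCD1LG2 was at 3.87 ± 0.362 FPKM (SD, n = 3), CD276 at 2.68 ± 0.729 and CD274 at 2.68 ± 1.51, and these last 2 did not differ beyond their spread. The row of LGALS9 was lowest at 1.53 ± 0.66 FPKM (SD, n = 3), within the spread of CD274. PVR shares its row with CEACAM19, a neighbouring gene, and LGALS9 shares its row with KSR1 and AC015688.5, so these 2 rows are sums that cannot be divided among their genes.

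PD-L2 mRNA was left at 15.8% of the scrambled mean under siCyclin K#1 and at 17.2% under siCyclin K#2. PDCD1LG2 (ENSG00000197646) was at 4.17, 3.97 and 3.47 FPKM in the scrambled libraries, at 0.705, 0.607 and 0.526 under siCyclin K#1, and at 0.513, 0.764 and 0.717 under siCyclin K#2. In reads these values were 333, 299 and 266, then 54, 45 and 41, and then 39, 60 and 54. Every siCyclin K library lay below every scrambled library, a pattern that 13.7% of the genes tested showed. The mean fell to 0.613 ± 0.0898 FPKM (SD, n = 3) under siCyclin K#1 and to 0.665 ± 0.133 FPKM (SD, n = 3) under siCyclin K#2. On the log2(FPKM + 0.1) scale used for all comparisons, which understates the change of low genes, PDCD1LG2 dropped by 2.43 over both siRNAs together. Of all genes 0.865% were more than 3-fold lower with p under 0.01, and since PDCD1LG2 was picked for this fall nothing is read from its place among them. The direct comparison of the siRNAs was not used for that choice, but a gene picked for a strong fall over these libraries is favoured to fall with both. That comparison is therefore not independent of the choice. There PDCD1LG2 differed by -0.09 (95% interval -0.46 to 0.28, limma, adjusted p = 0.727 by Benjamini-Hochberg), and differences within that interval could not be told from 0. Per unit of gene length, PDCD1LG2 was above CD274 in each of the 3 scrambled libraries. The margin was small in the second (3.97 against 3.91 FPKM) and the third (3.47 against 3.14 FPKM). With either Cyclin K siRNA CD274 was above PDCD1LG2 in each of the 6 libraries. This order rests on the fall for which PDCD1LG2 was picked and on CD274, whose libraries were far apart within groups.

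**Figure D1:**
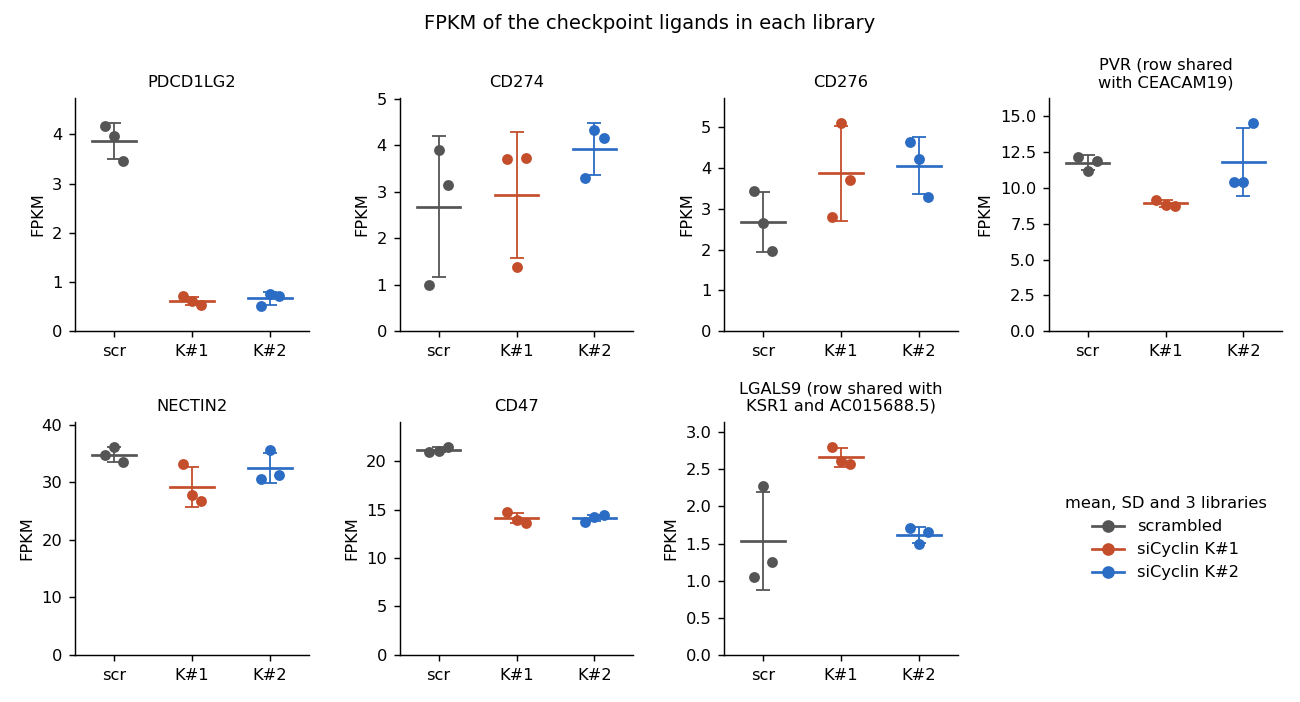
FPKM of the 7 checkpoint ligands with a row, in 7 panels with their own axes from 0; points are libraries (3 per group), lines are means and bars are SD (scr, scrambled siRNA; K#1 and K#2, siCyclin K#1 and #2). PDCD1LG2 and CD47 are the panels in which all 6 siCyclin K libraries lie below all 3 scrambled libraries. That pattern held for 13.7% of the genes tested, and CD274 spreads from 0.988 to 3.91 FPKM within the scrambled group.

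The genes around PDCD1LG2, a gene picked for its fall, were called in both directions. PDCD1LG2 is a plus-strand gene (GRCh38, chr9:5510570-5571254), and CD274 ends 40.0 kb upstream in the same orientation, at chr9:5450503-5470566. Within 1 Mb of the start of PDCD1LG2 the deposited rows name 46 other genes. Those that passed the filter on low values were tested, as 33 features. With both siRNAs together 1 feature rose and 3 fell past an adjusted p of 0.05 (limma), beside 17.0% higher and 11.5% lower over all genes. Their log2 differences ran from -0.72 to 1.23 with a median of 0.14, against a median of 0.06 over all genes tested. The 1 that rose was KIAA2026, at 1.78 ± 0.17 FPKM (SD, n = 3) in scrambled cells and 4.49 ± 1.39 FPKM (SD, n = 6) under siCyclin K (log2 difference 1.23, adjusted p = 0.0055). The 3 that fell were RCL1, a factor of ribosomal RNA processing (log2 difference -0.53, adjusted p = 0.0082), INSL4, an insulin-like peptide (-0.70, adjusted p = 0.042), and RANBP6, an importin relative (-0.25, adjusted p = 0.0068). Under siCyclin K#1 alone 10 rose and 4 fell (26.8% and 18.1% over all genes), and under siCyclin K#2 alone 2 rose and 5 fell (19.8% and 15.2%). Between the siRNAs 6 were higher under siCyclin K#1 and 1 was lower (17.1% and 12.3%). JAK2, a kinase of the interferon-gamma receptor, lies in this window, and its row, shared with the pseudogene MTND6P5, was at 4.64 ± 0.489 FPKM (SD, n = 3) in scrambled cells, 6.2 ± 0.243 under siCyclin K#1 and 3.57 ± 0.152 under siCyclin K#2. Several features of this window are pseudogenes of mitochondrial genes, which share reads with their near-identical copies and are uncertain.

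The genes of the ligands are of middle length. PDCD1LG2 spans 60.7 kb, at percentile 68.3 of the protein-coding genes tested, and CD47 spans 48.8 kb, at percentile 62.2. CD274 (20.1 kb), PVR (19.8 kb) and LGALS9 (19.8 kb) lie at percentiles 36.3, 36.0 and 36.0, CD276 (30.6 kb) at 48.2 and NECTIN2 (43.1 kb) at 58.2. PDCD1LG2 has the longest and CD47 the second longest span of the 7, which is a description of 7 genes.

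**Figure D2:**
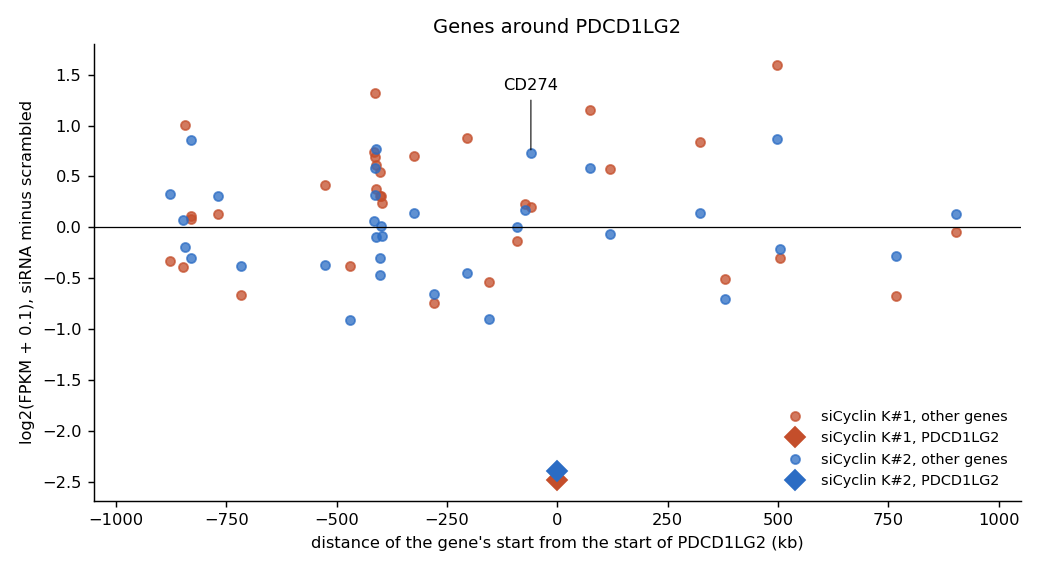
Difference of mean log2(FPKM + 0.1) from scrambled siRNA (vertical) for PDCD1LG2 (diamonds) and the 33 tested features within 1 Mb (circles), against the distance in kb between gene starts. PDCD1LG2, the gene picked for its fall, lies at -2.48 and -2.39 for siCyclin K#1 and #2. The lowest of the other features is CSNK1G2P1 at -0.91, with a mean of 0.107 FPKM in scrambled cells and 0 under siCyclin K#2. Features of such low level cannot fall as far as PDCD1LG2 on this scale.

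PD-L1 mRNA showed no change past the test, but its libraries were far apart within groups. CD274 (ENSG00000120217) was at 0.988, 3.91 and 3.14 FPKM in the scrambled libraries, at 3.71, 1.38 and 3.72 under siCyclin K#1, and at 3.29, 4.33 and 4.15 under siCyclin K#2. The first scrambled library and the second siCyclin K#1 library were low, and the other 7 lay between 3.14 and 4.33 FPKM. The difference over both siRNAs was 0.46 on the log2 scale (standard error 0.45, 95% interval -0.54 to 1.46, adjusted p = 0.48 from limma; exact two-sided permutation test, p = 0.464). Its sign depended on the first scrambled library, without which it was -0.11. The spread exceeded the counting error. CD274 had 137, 511 and 418 reads in the scrambled libraries, an SD of 194.7 where counting alone would give about 18.9. Its SD within groups was 0.75 log2 units, at percentile 99.0 of 11243 genes with a mean of at least 1 FPKM, whose median was 0.10. Of the other ligands CD276 was at percentile 92.2, the row of LGALS9 at 90.3, PDCD1LG2 at 78.8, the row of PVR at 71.9, NECTIN2 at 58.4 and CD47 at 7.0. What set the low CD274 libraries apart was not tested.

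The promoter of CD274 is shown because it carries the letters of the interferon pathway described further on. A window from 250 bases before to 50 bases after the start of each gene was taken from RefSeq (GRCh38.p14), and 7 of the 8 genes matched, all but PDCD1LG2. The 250 bases before the start of CD274 (chr9:5450292-5450541, plus strand) follow, with motif matches in capitals.
CD274: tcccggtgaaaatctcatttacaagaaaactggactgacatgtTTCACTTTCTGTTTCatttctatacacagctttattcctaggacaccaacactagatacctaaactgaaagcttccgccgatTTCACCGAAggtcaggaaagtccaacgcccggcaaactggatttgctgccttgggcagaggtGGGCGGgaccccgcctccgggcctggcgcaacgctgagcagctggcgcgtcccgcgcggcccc
The first capitals are 2 overlapping matches to the core of the interferon-stimulated response element (GAAANNGAA on either strand), at positions -207 and -201 from the start. Next comes a match to the GAS element of STAT dimers (TTCNNNGAA) at position -125, and then a GC box of SP1 (GGGCGG). Of 35116 promoter windows 8.11% held the first motif, 7.66% the second and 44.95% the third. Of the other ligands only LGALS9 held the interferon motif, and none held the GAS motif. Matches to NF-kB letters (GGGNNTTCC, in 6.58% of windows) were in CD276 and PVR. Also searched, on both strands, were AP-1 (TGANTCA, 7.71%; in VTCN1), the cyclic AMP response element (TGACGTCA, 1.85%; in NECTIN2), TATAAA (11.53%) and CACGTG (7.26%), and the last 2 were in no ligand's window. A match is a description of the letters and not a site.

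B7-H3 mRNA was higher on average with either siRNA, without passing the test. CD276 (ENSG00000103855; chr15:73683966-73714518, plus strand) was at 3.43, 2.64 and 1.97 FPKM in scrambled cells, at 2.79, 5.10 and 3.71 under siCyclin K#1, and at 4.64, 4.23 and 3.29 under siCyclin K#2. The groups overlapped, and 4 of the 6 siCyclin K libraries lay above all scrambled libraries. The log2 difference was 0.55 (standard error 0.21, 95% interval 0.07 to 1.03, adjusted p = 0.082 from limma; exact two-sided permutation test, p = 0.0595). Between the siRNAs it was -0.09 (95% interval -0.67 to 0.49, adjusted p = 0.835).

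CD47 mRNA fell to 66.7% of the scrambled mean with each siRNA. Besides PDCD1LG2 it was the only ligand whose 6 siCyclin K libraries and 3 scrambled libraries did not overlap. Of all genes tested 13.7% had their 6 siCyclin K libraries below the 3 scrambled libraries. CD47 (ENSG00000196776; chr3:108043094-108091862, minus strand) was at 21.0, 21.1 and 21.5 FPKM in scrambled cells, at 14.7, 14.0 and 13.7 under siCyclin K#1, and at 13.8, 14.2 and 14.4 under siCyclin K#2. The highest siCyclin K library, at 14.7 FPKM, was well under the lowest scrambled library, at 21.0 FPKM. The log2 difference was -0.58 over both siRNAs (standard error 0.05, adjusted p = 4.1e-05 from limma), and the exact two-sided permutation test gave p = 0.0119, the smallest that 6 libraries against 3 allow. For each siRNA alone CD47 fell by 0.58 on the log2 scale (adjusted p = 4.7e-06 and 8.8e-06). The siRNAs differed by less than 0.01 (95% interval -0.09 to 0.09). CD47 was measured with 3604 to 5824 reads per library. Its difference stayed past the threshold under every alternative tried except the threshold of a 3-fold change, and its size ran from -0.66 with median-ratio rescaling to -0.55 with a pseudocount of 1.

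The promoter of CD47 is shown as that of the ligand which, besides PDCD1LG2, fell in both groups. CD47 was not the gene picked for its fall, but all ligands were chosen with earlier results of these data known. Its 250 bases before the start (chr3:108091032-108091281, minus strand, RefSeq, GRCh38.p14) are given with GC boxes in capitals.
CD47: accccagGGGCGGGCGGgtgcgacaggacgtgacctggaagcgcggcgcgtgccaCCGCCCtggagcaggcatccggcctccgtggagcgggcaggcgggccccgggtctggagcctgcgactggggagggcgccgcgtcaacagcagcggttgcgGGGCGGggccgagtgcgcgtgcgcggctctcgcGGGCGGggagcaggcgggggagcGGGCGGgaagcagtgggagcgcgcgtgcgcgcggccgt
There are 6 GC boxes, of which the first 2 overlap, and none of the other motifs. Of the whole window 79.0% is G or C, above the upper quartile of all windows (68.0%), while the window of CD274 has 57.3%, near their median of 58.7%. The windows of CD276, which did not fall, have 80.3% with 7 GC boxes and 76.0% with 2. That of NECTIN2 has 68.3% with 3 GC boxes, and that of PVR has 67.3% with none. A window rich in G and C with several GC boxes was therefore not particular to CD47.

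PVR and NECTIN2, the ligands of TIGIT and CD226, were slightly lower under siCyclin K#1. They lie 182.6 kb apart on the plus strand of chromosome 19. The row of PVR (ENSG00000073008; chr19:44643798-44663583), which includes CEACAM19, was at 12.2, 11.2 and 11.9 FPKM in scrambled cells, at 9.19, 8.85 and 8.73 under siCyclin K#1, and at 10.4, 10.4 and 14.6 under siCyclin K#2. All siCyclin K#1 libraries lay below all others, and the third siCyclin K#2 library was the highest of all 9. The log2 difference was -0.39 for siCyclin K#1 (adjusted p = 0.025) and -0.01 for siCyclin K#2 (adjusted p = 0.957; limma), and the direct difference was -0.38 (adjusted p = 0.041). Without the third siCyclin K#2 library the row was lower with that siRNA too (-0.17, adjusted p = 0.046), and the direct difference was -0.22. The siCyclin K#1 call was lost without scrambled library 1 or 3 or siCyclin K#1 library 2 or 3 (adjusted p = 0.062 to 0.073). The direct call was lost in 6 of the 9 fits without 1 library, namely any scrambled or any siCyclin K#1 library, and in a fit of these 2 groups only (adjusted p = 0.086), without trend (0.073), without the filter (0.059), with unannotated loci (0.059) and with replicate number as a block (0.051). Over all alternatives its adjusted p ran from 0.021 to 0.102 (limma).
NECTIN2 (ENSG00000130202; chr19:44846175-44889228) was at 34.7, 36.2 and 33.5 FPKM in scrambled cells, at 33.2, 27.8 and 26.7 under siCyclin K#1, and at 30.6, 35.5 and 31.3 under siCyclin K#2. The siCyclin K#1 libraries lay below the scrambled libraries, the first of them by a small margin, and the siCyclin K#2 libraries overlapped them. The log2 difference was -0.26 for siCyclin K#1 (95% interval -0.46 to -0.06, adjusted p = 0.04 from limma) and -0.10 for siCyclin K#2 (adjusted p = 0.421). This call sat at the threshold: the adjusted p was 0.051 in a fit of these 2 groups only, and 0.054 to 0.128 without any 1 of 6 libraries. Over all alternatives it ran from 0.0043 to 0.128 (limma). The direct difference was -0.15 (95% interval -0.35 to 0.04, adjusted p = 0.234).

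The row of LGALS9 was higher under siCyclin K#1. LGALS9 (ENSG00000168961; chr17:27629798-27649560, plus strand), with KSR1 and AC015688.5, was at 1.05, 2.28 and 1.26 FPKM in scrambled cells, at 2.81, 2.61 and 2.57 under siCyclin K#1, and at 1.70, 1.49 and 1.66 under siCyclin K#2. All siCyclin K#1 libraries lay above all others. The log2 difference was 0.84 for siCyclin K#1 (standard error 0.23, adjusted p = 0.018 from limma) and 0.15 for siCyclin K#2 (adjusted p = 0.682). The siCyclin K#1 call was lost without scrambled library 1 (adjusted p = 0.052) or 3 (0.06) or siCyclin K#1 library 1 (0.052). The direct difference was 0.69 (95% interval 0.15 to 1.22, adjusted p = 0.057), and over the alternatives its adjusted p from limma ran from 0.0018 (without scrambled library 2) to 0.143 (without siCyclin K#2 library 2). KSR1 is a scaffold of the MAPK cascade, and how much of this row is galectin-9 cannot be told apart.

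Leaving PDCD1LG2 aside, 1 of the 6 rows passed the test against scrambled siRNA with both siRNAs together, and it was lower. Over all genes 11.5% were lower and 17.0% higher in that comparison. Under siCyclin K#1 3 of 6 were lower (CD47, PVR and NECTIN2) and 1 was higher (LGALS9), beside 18.1% lower and 26.8% higher over all genes. Under siCyclin K#2 1 of 6 was lower (CD47), beside 15.2% lower and 19.8% higher. In the direct comparison 1 of 7 was lower under siCyclin K#1 (PVR), beside 12.3% lower and 17.1% higher. With 6 or 7 rows, these counts can hardly be told from such shares, and the comparisons of each siRNA with scrambled share the 3 scrambled libraries. The summed fibroblast, epithelial and haematopoietic markers were all higher under siCyclin K#1 than in scrambled cells, and their part in these calls was not tested.

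**Figure D3:**
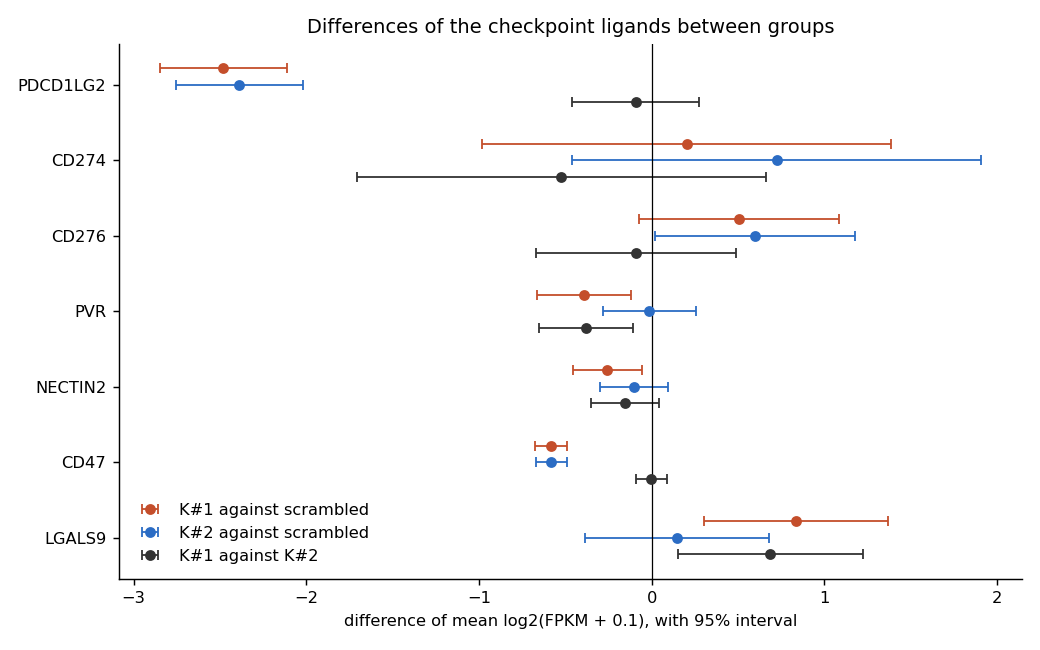
Difference of mean log2(FPKM + 0.1) for each ligand, siCyclin K#1 against scrambled (red), siCyclin K#2 against scrambled (blue) and siCyclin K#1 against #2 (black), with 95% intervals from limma (3 libraries per group; the rows of PVR and LGALS9 are shared with other genes). CD47 has the narrowest intervals and CD274 the widest. The values of PDCD1LG2 against scrambled are those it was picked for, so its intervals there are a description and not a test.

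An siRNA can also act on transcripts that match its seed, bases 2 to 8 of its guide, in the 3′ UTR. The guides were taken as the strand complementary to the CCNK sequence. The target letters are GTGATAA for siCyclin K#1, found in 9.31% of 19133 genes' longest 3′ UTRs, and TACAGGT for siCyclin K#2, found in 11.52%. The 3′ UTR of PDCD1LG2 (1295 bases in GENCODE 29) held neither, nor did those of CD276 and LGALS9. The sites of the ligands that were tested follow with the seed match in capitals, the first 3 for siCyclin K#1 and the last for siCyclin K#2.
CD274: accaccctgttGTGATAAccactattatt
CD47: attggttcaggGTGATAActacttagcac
NECTIN2: agaaattcaccGTGATAAtggaatcctgg
PVR: gtagctatgacTACAGGTatgtgccacca
The mean of CD47 was 14.1 FPKM under siCyclin K#1 and also under siCyclin K#2, for which its 3′ UTR holds no site. CD274 did not fall past the test under siCyclin K#1, and PVR did not under siCyclin K#2. NECTIN2 was lower under siCyclin K#1. The part of such sites in these differences was not tested.

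Among 32 other ligands that lymphocytes or phagocytes read, 22 were tested, and 4 were higher and 6 lower with both siRNAs together (17.0% and 11.5% over all genes; median log2 difference -0.20, against 0.06 over all genes). Under siCyclin K#1 6 were higher and 10 lower (26.8% and 18.1% over all genes), and under siCyclin K#2 4 and 7 (19.8% and 15.2%). FGL1, a ligand of LAG-3, rose from 1.55 ± 0.251 FPKM (SD, n = 3) to 5.49 ± 0.3 under siCyclin K#1 and 2.29 ± 0.158 under siCyclin K#2 (log2 differences 1.77 and 0.55, adjusted p = 3e-06 and 0.005 from limma). CD24, which phagocytes read through Siglec-10, rose from 28.6 ± 2.57 FPKM to 81.7 ± 5.56 and 49.9 ± 6.66 (1.51 and 0.80, adjusted p = 4.3e-06 and 0.00034). CD24 therefore went the opposite way to CD47, the other phagocyte signal here. The butyrophilin BTN2A2 fell from 2.84 ± 0.2 FPKM to 1.37 ± 0.403 and 1.23 ± 0.339 (adjusted p = 0.0082 and 0.0056). ULBP1 and MICB, ligands of the activating receptor NKG2D, fell with both siRNAs. ULBP1 was at 2.74 ± 0.14 FPKM in scrambled cells, 0.918 ± 0.144 under siCyclin K#1 and 1.68 ± 0.157 under siCyclin K#2. MICB was at 16.3 ± 0.0616, 12.5 ± 0.459 and 8.45 ± 0.215 FPKM. They differed between the siRNAs in opposite directions, ULBP1 being lower under siCyclin K#1 by 0.81 on the log2 scale (-0.81, adjusted p = 0.0013) and MICB higher by 0.56 (adjusted p = 2e-05). CD70, the ligand of CD27, fell under siCyclin K#1 (-1.05, adjusted p = 0.0001) and was at -0.24 under siCyclin K#2 (adjusted p = 0.152). Without the second or the third scrambled library, the number called with both siRNAs together was 6 in place of 10.

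Of 19 genes of the receptors that bind these ligands, 13 had a row and 9 were tested. With both siRNAs together 2 were higher and 3 lower, beside 17.0% and 11.5% of all genes (median log2 difference -0.36, against 0.06 over all genes). SIRPA, the receptor of CD47, is also made by A549 cells and fell with its ligand. It was at 19.8, 18.6 and 21.0 FPKM in scrambled cells, at 11.9, 11.3 and 10.8 under siCyclin K#1, and at 14.1, 15.2 and 15.3 under siCyclin K#2. The groups did not overlap (log2 differences -0.80 and -0.41, adjusted p = 8.1e-06 and 0.00072), and the direct difference was -0.39 (adjusted p = 0.0014). CD44, which galectin-9 binds, fell from 12.2 ± 1.67 FPKM to 6.58 ± 0.474 and 8.97 ± 1.17 (-0.87 and -0.43, adjusted p = 0.00036 and 0.022). P4HB, a protein disulfide isomerase to which galectin-9 binds at the cell surface, rose from 59.1 ± 4.63 FPKM to 103.9 ± 11.1 and 102.6 ± 8.52 (0.81 and 0.79, adjusted p = 0.00011 and 0.00019). The row of HAVCR2, which encodes TIM-3, is shared with MED7 and was at 3.15 ± 0.393 FPKM, 2.02 ± 0.262 and 2.44 ± 0.231. RGMB, a binding partner of PD-L2, was at 6.65 ± 1.64 FPKM in scrambled cells, 4.78 ± 1.22 under siCyclin K#1 and 4.85 ± 0.519 under siCyclin K#2 (adjusted p = 0.112 over both).

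Genes of the interferon-gamma, IL-4 and NF-kB pathways act on transcription of the PD-1 ligands. All 23 were tested, and 4 were higher and 8 lower with both siRNAs together (17.0% and 11.5% over all genes; median log2 difference -0.12, against 0.06 over all genes). Under siCyclin K#1 8 were higher and 8 lower (26.8% and 18.1% over all genes), and under siCyclin K#2 5 were higher and 11 lower (19.8% and 15.2%). The largest fall was that of NFKB2, the p100 precursor of the non-canonical pathway, which was at 75.2, 72.2 and 74.2 FPKM in scrambled cells, 21.5, 19.3 and 21.2 under siCyclin K#1, and 26.1, 30.0 and 29.7 under siCyclin K#2. It was left at 27.9% and 38.7% of the scrambled mean (adjusted p = 8.9e-08 and 9e-07 from limma), and the direct difference was -0.47 (adjusted p = 0.00058). RELB, its partner, fell from 15.6 ± 0.436 FPKM to 9.83 ± 2.26 and 8.29 ± 1.97 (adjusted p = 0.017 and 0.0047). NFKBIA, the inhibitor and target of NF-kB, fell from 25.3 ± 4.89 FPKM to 14.3 ± 2.94 and 12.1 ± 2.3 (adjusted p = 0.01 and 0.0038). IRF1, the factor that binds the interferon motif, was at 9.88, 9.94 and 9.97 FPKM in scrambled cells, at 5.63, 6.03 and 5.79 under siCyclin K#1, and at 5.34, 4.93 and 5.24 under siCyclin K#2. These groups did not overlap (log2 difference -0.85 over both siRNAs, adjusted p = 4.6e-05 from limma). CD274, whose promoter window holds the letters of that motif, did not pass the test (95% interval -0.54 to 1.46). A link between IRF1 and CD274 in these libraries was not tested. STAT3 rose from 21.9 ± 0.395 FPKM to 43.8 ± 0.439 and 36.1 ± 1.42 (1.00 and 0.72, adjusted p = 1.3e-07 and 1.5e-06). IL4R, the receptor of IL-4, was at 10.5, 6.25 and 2.92 FPKM in the scrambled libraries, a spread within which its log2 difference of -0.71 (adjusted p = 0.304) lay.

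Of 18 genes that act on the stability and maturation of the PD-L1 and CD47 proteins 16 were tested. With both siRNAs together 6 were higher and the other 10 did not pass the test (limma), beside 17.0% higher and 11.5% lower over all genes. The median log2 difference was 0.27, against 0.06 over all genes. Under siCyclin K#1 7 were higher and 4 lower (26.8% and 18.1% over all genes), and under siCyclin K#2 9 and 2 (19.8% and 15.2%). The genes that rose do not act in 1 direction on the proteins. HIP1R, which directs PD-L1 to the lysosome, rose from 1.67 ± 0.263 FPKM to 5.02 ± 0.174 and 4.59 ± 0.185 (1.54 and 1.41, adjusted p = 3.7e-06 and 1.1e-05). GSK3B, a kinase that marks PD-L1 for degradation, rose from 10.4 ± 0.233 FPKM to 20.5 ± 0.235 and 15.7 ± 0.272 (adjusted p = 1.2e-07 and 3.9e-06). STT3B, a subunit of the enzyme that adds N-glycans, rose from 23.8 ± 0.302 FPKM to 38.2 ± 0.919 and 39.2 ± 6.68 (adjusted p = 0.00047 and 0.00056). QPCT, a glutaminyl cyclase related to the enzyme that modifies CD47, rose from 12.02 ± 1.67 FPKM to 23.9 ± 1.56 and 25.6 ± 0.293 (adjusted p = 3.4e-05 and 3.1e-05). SPOP, an adaptor of the ubiquitin ligase that degrades PD-L1, rose under siCyclin K#2 (0.63, adjusted p = 0.00069) and was at 0.17 under siCyclin K#1 (adjusted p = 0.163).

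CMTM6, which keeps PD-L1 at the cell surface, had the largest difference between the siRNAs among the genes named here. It was at 28.9, 27.9 and 28.8 FPKM in the scrambled libraries, at 5.50, 5.33 and 4.74 under siCyclin K#1, and at 22.6, 22.6 and 21.5 under siCyclin K#2. No groups overlapped, and CMTM6 was left at 18.2% of the scrambled mean under siCyclin K#1 and at 77.9% under siCyclin K#2. The log2 differences were -2.44 and -0.36 (adjusted p = 1.9e-08 and 0.0012 from limma), and the direct difference was -2.08 (standard error 0.06, adjusted p = 1.7e-07). Treated as 1 group, the siRNAs spread too far for the test (adjusted p = 0.103). CCNK was left at 11.5% and 12.03% in these groups. Of the summed markers given above, those of fibroblasts were higher under siCyclin K#1 than under siCyclin K#2. The haematopoietic sum was lower and the epithelial sums overlapped. The part of these sums in the difference of CMTM6 was not tested. The longest 3′ UTR of CMTM6 was searched after these values were seen and holds a site for each siRNA, shown with the seed match in capitals.
CMTM6, siCyclin K#1: tcatgtttccaGTGATAAagtttaatgac
CMTM6, siCyclin K#2: tgtcattctgtTACAGGTcattcttttac
The part of these sites was not tested.

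**Figure D4:**
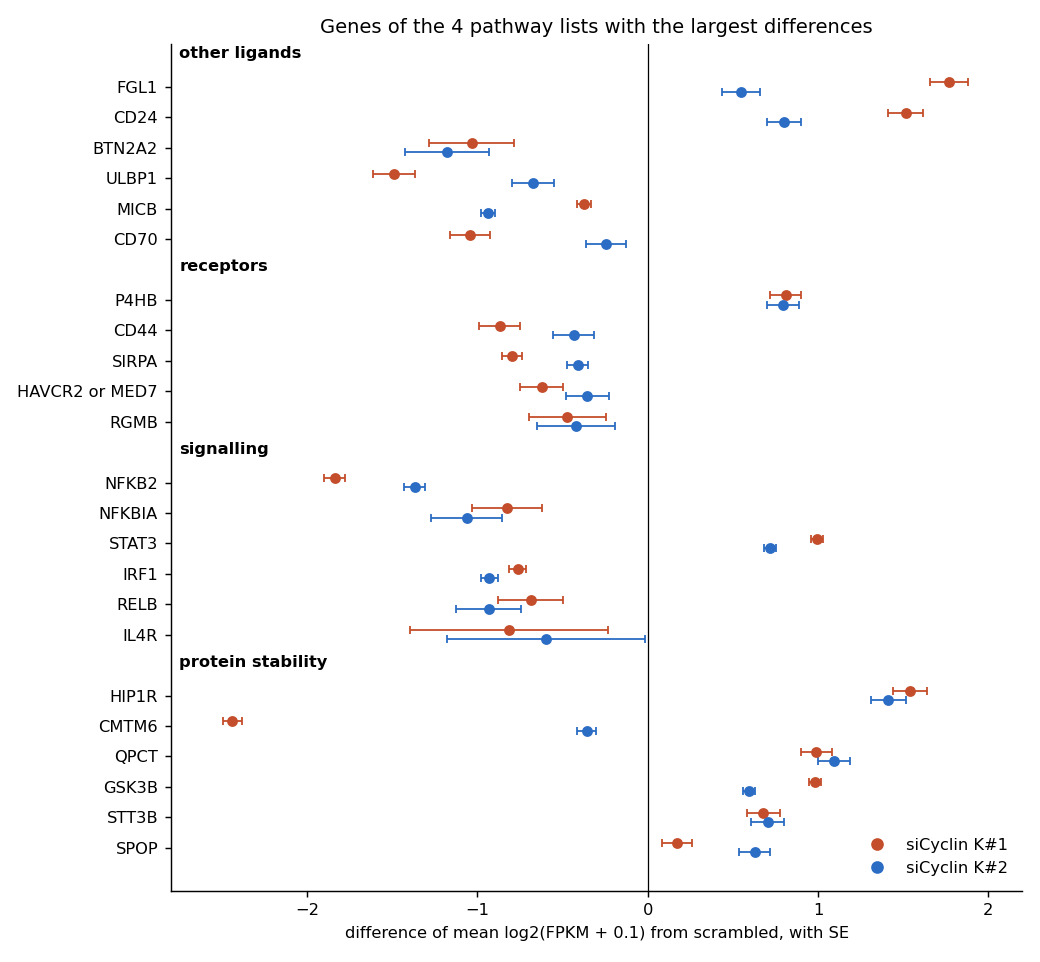
Difference of mean log2(FPKM + 0.1) from scrambled siRNA, with standard error, for the genes of the 4 lists with a mean of at least 1 FPKM and the largest differences, for siCyclin K#1 (red) and siCyclin K#2 (blue), 3 libraries per group. NFKB2, NFKBIA, IRF1 and RELB lie left of 0 for both siRNAs, and CMTM6 lies at -2.44 for siCyclin K#1 and at -0.36 for siCyclin K#2.

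The genes most like PDCD1LG2 over the 9 libraries were sought among 11243 genes with a mean of at least 1 FPKM, as a description, since the libraries fall into 3 groups and the correlation mostly reflects the step between scrambled and siCyclin K. By Pearson's r of log2(FPKM + 0.1), the 5 closest were the row shared by TOMM6 and PRICKLE4 (r = 0.996), PYGL, the liver glycogen phosphorylase (0.996), CD47 (0.994), FEM1A (0.993) and CCNK itself (0.993). CD47 shared this step at a smaller size, and the values of PDCD1LG2 used here are those it was picked for. The r of PDCD1LG2 with the other ligands was 0.67 for NECTIN2, 0.47 for PVR, -0.31 for CD274, -0.53 for LGALS9 and -0.66 for CD276. By distance after each gene was centred on its scrambled mean, the closest was UCP2, an uncoupling protein of the mitochondrial inner membrane, with a root mean square distance of 0.19 log2 units. UCP2 was at 12.8 ± 0.781 FPKM (SD, n = 3) in scrambled cells, 2.23 ± 0.129 under siCyclin K#1 and 2.80 ± 0.134 under siCyclin K#2. The next were the row of AC025171.4 and AC025171.2 (0.25), TLCD1 (0.37), CD44-AS1 (0.39), which overlaps CD44 on the other strand, and AC092118.1 (0.42).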

How the data were processed

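RNA from 9 A549 libraries, 3 per siRNA, was compared, with groups and replicate numbers from the sample labels. The deposited values are FPKM, which per the labels the authors obtained with StringTie 1.3.3b. The aligner and the annotation release are not given in the sources used here. Where a reference gene had several rows, these were added up. limma 3.58.1 (R 4.3.3; lmFit, then eBayes with trend) was applied to log2(FPKM + 0.1) of the 21048 genes that reached 0.1 FPKM in 3 or more libraries, and p-values were adjusted by Benjamini-Hochberg. Both siRNAs together were fitted against scrambled siRNA as 2 groups, and each siRNA against scrambled siRNA and against the other in a fit of 3 groups. Single values had an exact two-sided permutation test (scipy 1.17.1). Of the nonzero values 76.9% to 78.0% per library were whole reads within 0.02, given the exon lengths of GENCODE 29, and the reads quoted come from these steps. For intervals and reads, depth covers counting error only.

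Named genes were every ligand and CCNK, up to 6 genes per list (mean FPKM 1 or more) by the size of their difference over both siRNAs, the genes within 1 Mb of PDCD1LG2, and the 5 nearest to it by each of 2 measures. The ligands and the lists were chosen with earlier results of these data known. The limma fit of both siRNAs together was checked on simulated data with known changes. Both siRNAs were changed alike there, so genes that differ between the siRNAs were not covered. The alternatives were other pseudocounts, filters, scalings, thresholds and fits, a replicate block, and leaving out each library. limma-voom on recovered reads was added after the data were seen.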

Additional observations from a re-analysis of the deposited data

Results flagged for a closer look

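Among 62 features (the ligands, the named genes of the lists and the neighbours of PDCD1LG2), 8 had a siCyclin K library far from the other 5 by Dixon's criterion, where chance gives about 3.1. CD274 had 1.38 FPKM in the second siCyclin K#1 library, with the others at 3.29 to 4.33 FPKM, and the first scrambled library, at 0.988 FPKM, is a low value of the same gene in a group too small for the criterion. The row of PVR had 14.6 FPKM in the third siCyclin K#2 library (others 8.73 to 10.4 FPKM). STT3B had 46.9 FPKM in the first siCyclin K#2 library (others 35.1 to 38.95 FPKM). The other 5 were features of low level near PDCD1LG2: AL135786.1 at 0.709 FPKM, CSNK1G2P1 at 0.127, MTATP6P11 at 0.187, MTND5P14 at 0.806, and AL162253.1, listed at 0.

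The difference between siCyclin K#1 and siCyclin K#2 passed the test (limma, adjusted p under 0.05) for 21 of these features. Values are siCyclin K#1 minus siCyclin K#2 on the log2 scale. It was largest for CMTM6 (-2.08). Among other ligands it was 1.22 for FGL1, 0.71 for CD24, 0.56 for MICB, -0.80 for CD70 and -0.81 for ULBP1, and for the row of PVR it was -0.38. Among receptors it was -0.44 for CD44 and -0.39 for SIRPA. Among signalling genes it was -0.47 for NFKB2, 0.28 for STAT3, 0.17 for IRF1 and 0.78 for the row of JAK2, which is also a neighbour of PDCD1LG2. Among genes of protein stability it was 0.39 for GSK3B and -0.46 for SPOP. Among further neighbours it was 1.20 for SPATA6L, 0.73 for KIAA2026, 0.70 for ERMP1, 0.63 for RIC1, 0.41 for CDC37L1 and -0.46 for PLPP6.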

How the results depend on the processing

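Against scrambled siRNA, CD47 kept its direction and its side of the adjusted threshold under every alternative fit. No ligand other than PDCD1LG2 passed a fold change over 3 with an unadjusted p under 0.01 (0 of 6 against scrambled siRNA and 0 of 7 in the direct comparison). The siCyclin K#1 calls were 2 with limma-voom on recovered reads, which holds no shared rows and so 4 of the 6. The direct comparison called 2 (PVR and LGALS9) with a pseudocount of 0.5 or 1 or a mean FPKM of at least 1. It called 0 without a filter, without trend and with unannotated loci included, and the cause of these changes was not tested. With limma-voom it also called 0, but that fit held neither the row of PVR nor that of LGALS9 and could not call them.

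Leaving out single libraries gave 1 to 2 ligands for both siRNAs together, 1 to 4 for siCyclin K#1, 1 to 2 for siCyclin K#2 and 0 to 1 for the direct comparison. With both siRNAs, CD276 passed without the first siCyclin K#1 library and PVR without the third siCyclin K#2 library. For siCyclin K#1 the count was 1 without scrambled library 1 or 3 and 2 without siCyclin K#1 library 2 or 3. For siCyclin K#2, LGALS9 passed without the second scrambled library and PVR without the third siCyclin K#2 library. The direct call of PVR was lost without any 1 of the scrambled or siCyclin K#1 libraries, and in some of these fits another ligand passed (LGALS9 or NECTIN2).

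Over the ligands' log2 differences that were tested and all alternatives, 484 values kept their direction and side of the threshold, 30 lost the call and 11 gained it. Signs turned for 17 values, all from differences that did not pass the test as reported. Leaving out single libraries, the log2 difference of CD274 ran from -0.11 to 0.83 for both siRNAs and from -0.37 to 0.66 for siCyclin K#1. For siCyclin K#2 that of PVR ran from -0.17 to 0.069 and that of LGALS9 from -0.069 to 0.46. In the direct comparison PDCD1LG2 ran from -0.24 to 0.0033, CD276 from -0.31 to 0.12 and CD47 from -0.032 to 0.022. CD47 was there at 0.046 with quantile normalization and 0.0052 with limma-voom.

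Over 11243 genes, libraries with the same replicate number did not deviate together (mean r -0.0058 over 9 pairs, from -0.07 to 0.04). A correlation over so many genes cannot show whether single genes share a batch. In a fit that blocked on replicate number, the calls were 1 for both siRNAs, 3 for siCyclin K#1 (without NECTIN2), 1 for siCyclin K#2 and 0 in the direct comparison.

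The median log2 difference of all genes for siCyclin K#1 was 0.10 as deposited, 0.00089 with median-ratio rescaling and -0.02 with quantile normalization. In the direct comparison 3600 genes were higher and 2591 lower as deposited, and 2857 and 3211 with median-ratio rescaling. Among the 4 lists, the genes called with both siRNAs rose from 10 to 16 for other ligands and from 6 to 12 for protein stability when both siRNAs were averaged in the fit of 3 groups. The receptors' direct count of 2 was 1 without the first or second library of either siRNA. With 3 libraries per group, an exact test cannot go below p = 0.1.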
